A study of Mus musculus with 15 samples.

Results

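A set of 10 early response regulators was followed in mouse microglia and forebrain after deletion of Atg7 in microglia. The genes were Klf2, Klf4, Klf6, Dusp1, Dusp6, Zfp36, Btg2, Nr4a1, Rgs1 and Ppp1r15a, given by name. They were not picked by a measured value, but they were chosen with earlier results of these data known. They are 10 of 54532 genes in the forebrain count table and 10 of 32285 genes in each single-cell matrix, and each was found in both. Sorted microglia gave 1 single-cell library per genotype: ATG7CKO (Cx3cr1CreER with ATG7FF, cells pooled from 4 forebrains) and WT (ATG7FF without Cre, pooled from 3 forebrains). Forebrain bulk RNA-seq gave 7 KOFAD libraries (Cx3cr1CreER, ATG7FF and 5xFAD) and 6 WTFAD libraries (ATG7FF and 5xFAD without Cre). ATG7FF is the floxed Atg7 allele, carried by every group, and 5xFAD is a set of human transgenes with familial Alzheimer's disease mutations, carried by both forebrain groups and by neither sorted library. Mice of each group were on C57BL/6, were given tamoxifen (1.5 mg) when 2 months old and were studied when 8 months old. Cx3cr1CreER is a tamoxifen-inducible Cre at the microglial Cx3cr1 locus and was present only in the ATG7CKO and KOFAD groups, so effects of that allele and of the Atg7 deletion cannot be told apart. No label states that the forebrain libraries came from different mice, and the p-values therefore reflect only how these samples spread.

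Early response genes are switched on within minutes to hours of a stimulus without the need for new protein synthesis, and many of their products then limit the signal that induced them. The products here include transcription factors, phosphatases that switch off MAP kinases, proteins that destabilise messenger RNA, a brake on G-protein signalling and a phosphatase subunit that restores translation. In the brain such genes mark neuronal activity, while in microglia they respond to inflammatory stimuli and to tissue handling.

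After filters on genes and mitochondrial reads, the ATG7CKO library kept 8874 of 9840 barcodes with a median of 4531.5 UMIs (unique molecules) per cell, and the WT library kept 6243 of 6633 with a median of 1392. The libraries shared 22 cell barcodes, 11 of them among kept cells. The sort label was checked with 17 microglia markers, which had summed levels of 57000 CPM (counts scaled to a common library total) in ATG7CKO cells and 65600 CPM in WT cells, whereas 6 neuron markers summed to 2.77 CPM in ATG7CKO cells and 1.43 CPM in WT cells. Border macrophage markers summed to 14.5 CPM in ATG7CKO cells and 5.81 CPM in WT cells. Forebrain libraries held 16658707 to 22355512 counts. Atg7 itself was at 18.1 CPM in ATG7CKO cells and 15.8 CPM in WT cells, and had a lowest, median and highest level of 22.8, 24.9 and 25.8 CPM in KOFAD forebrains, against 21.2, 24.1 and 27.4 CPM in WTFAD forebrains. Which part of Atg7 the floxed allele removes is not given in the sources used here. These reads do not check the deletion.

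The listed genes lie on 8 chromosomes of GRCm38 (the assembly also called mm10), with Btg2 and Rgs1 both on chromosome 1 and Zfp36 and Ppp1r15a both on chromosome 7. RefSeq promoter windows of GRCm38.p6, from 250 bases before to 50 after the start, were available for 9 of the 10. The full cAMP response element, TGACGTCA, which CREB-family factors are known to bind, was present in 3 of these 9 windows, those of Dusp1, Btg2 and Ppp1r15a, against 1.79% of 32851 promoters and 2.23% of the 21263 of protein-coding genes, the class of all 10. The shorter core element TGACG, searched on both strands and contained in the full element, was present in 6 of 9, against 20.8% of all promoters and 23.6% of protein-coding ones. A GC box, GGGCGG, was present in 7 of 9, against 35.7% and 46.2%. The AP-1 element TGACTCA was in 0 of 9, against 5.2% and 4.66%, and a serum response CArG box was in 1, that of Zfp36, against 1.63% and 1.52%. These matches describe letters in a window and not occupied sites. The windows with the full element, the CArG box and the 4 core elements of Nr4a1 are shown because they are where the regulators differ in these motifs, and capitals mark full and core cAMP response elements and the CArG box.
Dusp1, chr17:26508423-26508722, minus strand: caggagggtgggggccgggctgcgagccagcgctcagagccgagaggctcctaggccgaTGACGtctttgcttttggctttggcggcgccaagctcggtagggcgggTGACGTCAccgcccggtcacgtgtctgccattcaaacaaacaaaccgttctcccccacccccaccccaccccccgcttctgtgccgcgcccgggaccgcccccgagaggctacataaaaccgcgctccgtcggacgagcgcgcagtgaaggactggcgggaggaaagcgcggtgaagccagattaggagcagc
Btg2, chr1:134079106-134079405, minus strand: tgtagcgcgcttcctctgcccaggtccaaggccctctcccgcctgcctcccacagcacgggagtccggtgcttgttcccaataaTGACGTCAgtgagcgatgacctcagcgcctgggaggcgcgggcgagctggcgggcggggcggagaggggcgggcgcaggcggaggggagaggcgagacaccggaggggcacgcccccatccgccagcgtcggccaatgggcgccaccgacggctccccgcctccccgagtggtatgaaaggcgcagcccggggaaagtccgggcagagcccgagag
Ppp1r15a, chr7:45526219-45526518, minus strand: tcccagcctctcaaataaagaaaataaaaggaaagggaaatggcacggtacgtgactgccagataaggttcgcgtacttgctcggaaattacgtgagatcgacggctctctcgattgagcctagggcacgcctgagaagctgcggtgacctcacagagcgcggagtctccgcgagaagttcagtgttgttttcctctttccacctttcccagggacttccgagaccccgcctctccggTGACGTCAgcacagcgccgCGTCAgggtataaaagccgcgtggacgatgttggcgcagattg
Zfp36, chr7:28379179-28379478, minus strand: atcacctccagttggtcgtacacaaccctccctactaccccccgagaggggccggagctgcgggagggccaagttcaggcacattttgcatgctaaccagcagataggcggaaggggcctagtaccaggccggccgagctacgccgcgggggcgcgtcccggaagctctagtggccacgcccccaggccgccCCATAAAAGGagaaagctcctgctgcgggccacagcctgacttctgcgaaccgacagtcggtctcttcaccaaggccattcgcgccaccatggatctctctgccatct
Nr4a1, chr15:101266596-101266895, plus strand: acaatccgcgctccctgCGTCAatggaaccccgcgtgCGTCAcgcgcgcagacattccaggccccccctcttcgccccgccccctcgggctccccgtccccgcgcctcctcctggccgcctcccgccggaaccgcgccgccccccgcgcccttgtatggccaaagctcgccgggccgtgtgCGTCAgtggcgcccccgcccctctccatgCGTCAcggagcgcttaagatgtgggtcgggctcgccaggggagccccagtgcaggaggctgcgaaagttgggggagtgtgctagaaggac
The full element began 143 bases before the start in Dusp1, 166 in Btg2 and 12 in Ppp1r15a. The CArG box of Zfp36 began 58 bases before its start. The core elements of Nr4a1 began 233, 213, 69 and 40 bases before its start.

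To ask how the regulators stood in Atg7-deleted microglia without amyloid, UMIs were summed over the kept cells of each library. Of the 10 genes, 9 reached 20 CPM in either library, and each of these 9 was lower in ATG7CKO cells than in WT cells. At the same floor, 38.4% of 6769 genes were lower in ATG7CKO cells. A lower level was not particular to the regulators, as 16 of 17 microglia markers were also lower. Among relatives at the floor, listed below, 10 of 10 AP-1 and EGR factors and 2 of 4 other KLF factors were lower. Klf4, Rgs1, Dusp1 and Klf2 were lower by at least 1.5-fold, against 1.43% of all genes at the floor, and none of the 10 was higher by that much, against 1.88%. The median log2 ratio was -0.58 for the 9 genes and 0.05 for all 6769. With 1 library per genotype there was no replicate check and no test. The 95% intervals given with each ratio cover counting error only.

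Among the Krüppel-like transcription factors, Klf4, which takes part in monocyte differentiation and in pluripotency, had the lowest ratio of the 10 genes. Its level was 37.3 CPM in ATG7CKO cells and 97.8 CPM in WT cells, a ratio of 0.382 (0.351 to 0.415). Klf2, a factor of endothelial quiescence that also restrains myeloid activation, was at 115 CPM in ATG7CKO cells and 187 CPM in WT cells, a ratio of 0.616 (0.582 to 0.651). Klf6, a widely expressed relative, was the closest to equal of the 3, at 369 CPM in ATG7CKO cells and 440 CPM in WT cells, a ratio of 0.839 (0.811 to 0.869). Over all kept cells the 3 factors thus differed among themselves in the size of the difference, with intervals that did not overlap. The intervals of Klf2 and Klf4 did overlap among cells of 500 to 1000 UMIs and among cells of 1000 to 2000 UMIs.

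The MAP kinase phosphatases also differed from each other. Dusp1, a nuclear phosphatase that inactivates p38 and JNK, was at 170 CPM in ATG7CKO cells and 321 CPM in WT cells, a ratio of 0.531 (0.508 to 0.554). Dusp6, a cytoplasmic phosphatase specific for ERK, was at 386 CPM in ATG7CKO cells and 479 CPM in WT cells, a ratio of 0.805 (0.779 to 0.833). The Dusp6 ratio was nearer to 1, and over all kept cells the intervals did not overlap.

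Btg2 and Zfp36 act on messenger RNA and were the most abundant of the 10 genes in both libraries. Btg2, an antiproliferative protein that recruits the CCR4-NOT deadenylase, was at 1616 CPM in ATG7CKO cells and 2342 CPM in WT cells, a ratio of 0.690 (0.679 to 0.701). Its level ranked 46th among all genes in ATG7CKO cells and 27th in WT cells. Zfp36 encodes tristetraprolin, which binds AU-rich elements and promotes decay of cytokine transcripts. It was at 669 CPM in ATG7CKO cells and 839 CPM in WT cells, a ratio of 0.797 (0.777 to 0.818).

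Rgs1, which speeds GTP hydrolysis by G-alpha subunits and so curbs chemokine receptor signalling, was at 157 CPM in ATG7CKO cells and 313 CPM in WT cells, a ratio of 0.502 (0.480 to 0.525). Ppp1r15a, also called GADD34, brings a phosphatase to the initiation factor eIF2-alpha. It was at 131.5 CPM in ATG7CKO cells and 196.9 CPM in WT cells, and its 1.497-fold lower level lay just under the 1.5-fold limit, next to Klf2 at 1.62-fold just past it. Nr4a1, an orphan nuclear receptor also called Nur77, was nearly undetected, with 92 UMIs in ATG7CKO cells and 22 in WT cells, or 2.30 and 2.41 CPM. Its ratio of 0.953 had an interval of 0.593 to 1.59, so no difference was detectable at this depth.

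The order of the 10 levels was the same in both libraries, from Btg2 through Zfp36, Dusp6, Klf6, Dusp1, Rgs1, Ppp1r15a, Klf2 and Klf4 to Nr4a1. In WT cells the counting intervals of the neighbours Dusp1 and Rgs1 overlapped, at 309 to 333 and 301 to 324 CPM, as did those of Ppp1r15a and Klf2, at 188 to 206 and 178 to 196 CPM. These levels are tags from transcript ends and need no correction for transcript length.

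**Figure D1:**
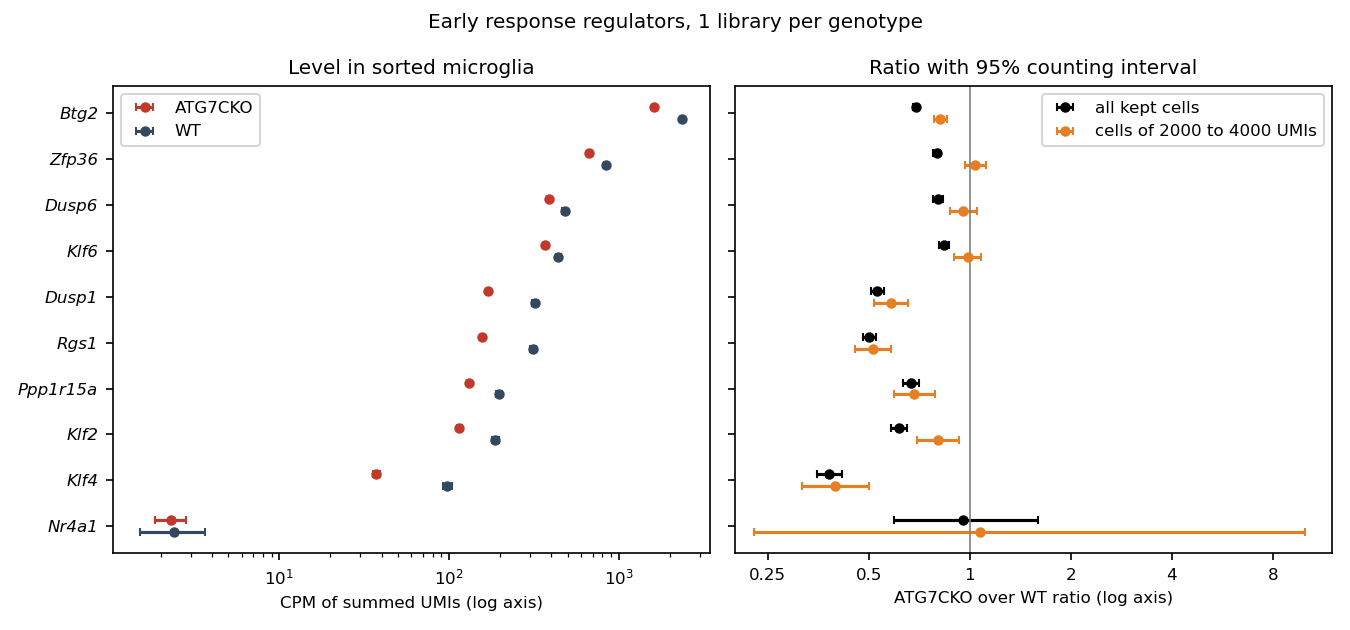
Levels of the 10 genes in sorted microglia (left, CPM of summed UMIs on a log axis) and the ATG7CKO over WT ratio (right, log axis), with 95% counting intervals, for all kept cells and for cells of 2000 to 4000 UMIs. Over all kept cells the 9 genes other than Nr4a1 lie left of a ratio of 1 with their intervals, and Zfp36, Dusp6 and Klf6 move to intervals that hold 1 in cells of 2000 to 4000 UMIs.

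Shares of cells with a UMI were compared after thinning each cell to 1000 UMIs, which kept 8331 ATG7CKO cells and 5655 WT cells and left out 543 and 588 shallower ones. Btg2 was seen in 68.8% of thinned ATG7CKO cells and 84.0% of thinned WT cells, against 90.7% and 89.5% without thinning. Rgs1 was seen in 12.2% of thinned ATG7CKO cells and 20.9% of thinned WT cells, against 30.0% and 26.8% without thinning. After thinning, both genes were seen in a smaller share of ATG7CKO cells, although thinning does not make cells of unlike original depth alike. The thinned share was 3.43% in ATG7CKO cells and 8.33% in WT cells for Klf4, and 14.6% in ATG7CKO cells and 24.5% in WT cells for Dusp1. For Klf2 it was 8.83% in ATG7CKO cells and 14.1% in WT cells, and for Ppp1r15a 12.1% in ATG7CKO cells and 16.6% in WT cells. The smallest gap among genes at the floor was that of Klf6, at 28.5% of ATG7CKO cells and 30.8% of WT cells. Before thinning these 4 genes were in 10.3%, 37.9%, 22.3% and 35.5% of ATG7CKO cells and 10.6%, 32.5%, 18.5% and 23.0% of WT cells, in the order Klf4, Dusp1, Klf2 and Ppp1r15a, and Klf6 was in 63.4% of ATG7CKO cells and 38.6% of WT cells. Nr4a1 was in 0.18% of thinned ATG7CKO cells and 0.212% of thinned WT cells. Neuron markers, a proxy for free RNA from neurons, were in at most 0.108% of thinned ATG7CKO cells and 0.0707% of thinned WT cells. They do not measure free RNA from microglia.

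The libraries differed in depth per cell, so the genes were also compared among cells of like UMI totals, a division chosen after the data were seen. Most WT cells, 5144 of 6243, held 1000 to 2000 UMIs, a range that held 1033 ATG7CKO cells, whereas 4974 ATG7CKO cells and 8 WT cells held 4000 to 8000. Between 2000 and 4000 UMIs there were 1783 ATG7CKO cells and 503 WT cells, with summed microglia markers of 55200 and 64100 CPM. In these cells Klf4, Rgs1 and Dusp1 were lower in ATG7CKO by at least 1.5-fold, with ratios of 0.397 (0.316 to 0.5), 0.515 (0.456 to 0.583) and 0.583 (0.520 to 0.655), against 2.98% of all genes, and none was higher by that much, against 6.18%. Ppp1r15a had a ratio of 0.683 (0.593 to 0.790), Klf2 one of 0.804 (0.696 to 0.932) and Btg2 one of 0.818 (0.785 to 0.853). Dusp6, Klf6 and Zfp36 had ratios of 0.958, 0.986 and 1.04 with intervals that held 1, so among these cells no difference was detectable for these 3.

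Among cells of 1000 to 2000 UMIs none of the 9 genes was lower by 1.5-fold, against 25.2% of all genes, and none was higher by that much, against 31.8%. There the ratio was 0.961 (0.864 to 1.07) for Rgs1, 0.819 (0.666 to 0.998) for Klf4, 0.755 (0.672 to 0.847) for Dusp1 and 0.801 (0.688 to 0.929) for Klf2. For Dusp6 it was 0.795 (0.725 to 0.871), an interval that overlapped that of Dusp1 and lay below 1, unlike in cells of 2000 to 4000 UMIs. Zfp36 and Ppp1r15a had ratios of 0.994 (0.933 to 1.06) and 1.01 (0.888 to 1.16). Klf6 was higher in ATG7CKO cells at 524 CPM, against 438 CPM in WT cells, a ratio of 1.19 (1.1 to 1.3). Btg2 was at 2480 CPM in ATG7CKO cells and 2340 CPM in WT cells, a ratio of 1.06 (1.02 to 1.1). Both intervals lay above 1, opposite in direction to all kept cells. In the same cells the summed microglia markers were 28900 CPM in ATG7CKO and 65800 CPM in WT, so cells of unlike marker content stood side by side. The part of that marker difference in the results was not tested. Cells of 500 to 1000 UMIs, 543 ATG7CKO and 588 WT, had summed microglia markers of 23000 and 66100 CPM. There Klf2 was lower by at least 1.5-fold, at 0.596 (0.442 to 0.797), against 28.0% of all genes. Btg2 and Zfp36 had ratios of 0.693 (0.637 to 0.755) and 0.776 (0.677 to 0.889). Dusp1 and Dusp6 were at 0.722 and 0.786, with intervals below 1. For Klf4, Klf6, Rgs1 and Ppp1r15a the intervals held 1, with Klf6 at 1.15. Within the ATG7CKO library, Rgs1 was at 252 CPM in cells of 500 to 1000 UMIs, 305 CPM at 1000 to 2000, 150 CPM at 2000 to 4000, 145 CPM at 4000 to 8000 and 178 CPM above 8000. Klf4 was at 63.6, 81.7, 37.3, 34.2 and 38.9 CPM in the same ATG7CKO ranges. In WT cells Rgs1 was at 319 CPM between 500 and 1000 UMIs, 317 CPM between 1000 and 2000 and 292 CPM between 2000 and 4000, and Klf4 at 81.6, 99.8 and 93.9 CPM. In ATG7CKO cells both genes thus stepped down once, at 2000 UMIs, with no steady fall.

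**Figure D2:**
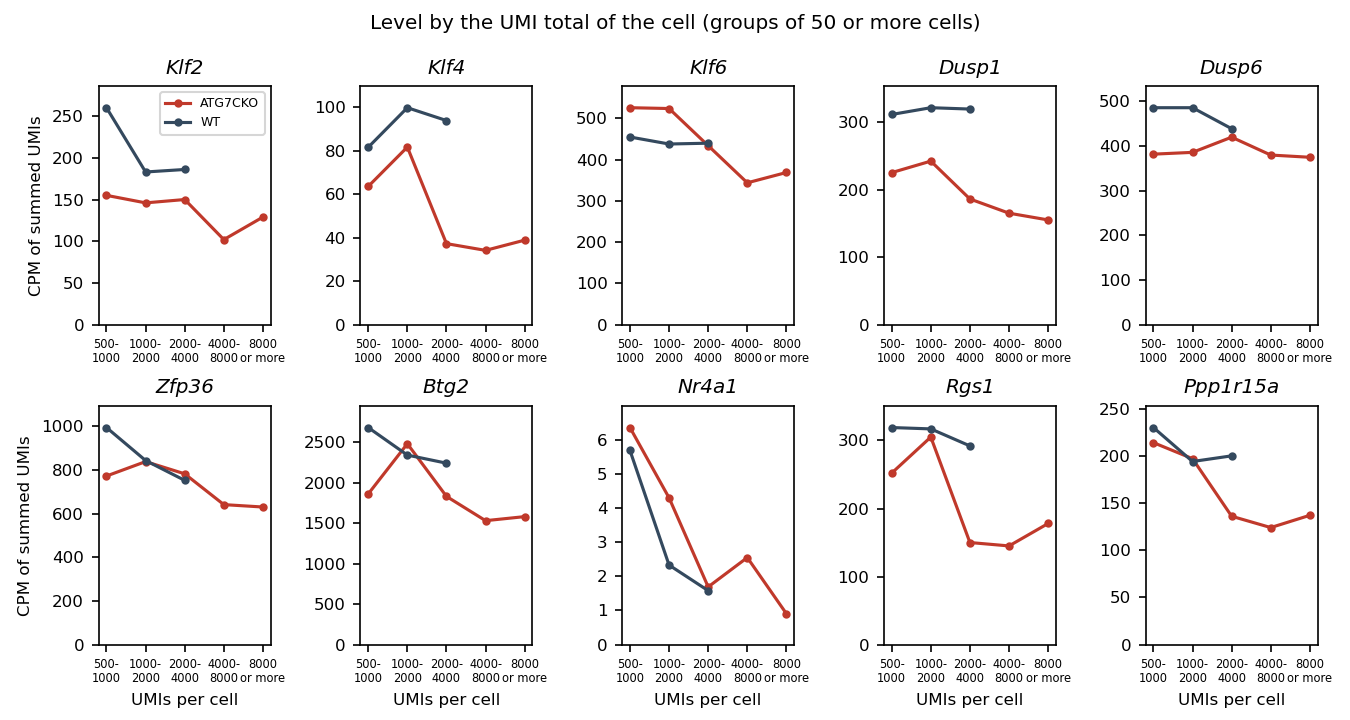
Level of each gene (CPM of summed UMIs) by the UMI total of the cell, for ATG7CKO and WT cells, shown for ranges with 50 or more cells, which WT cells reach up to 4000 UMIs. In ATG7CKO cells Rgs1 runs 252, 305, 150, 145 and 178 CPM and Klf4 runs 63.6, 81.7, 37.3, 34.2 and 38.9 CPM over the 5 ranges, a single step down at 2000 UMIs.

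Across thinned cells of 1 library, the 45 pairs of listed genes had correlations of -0.01 to 0.21 in ATG7CKO cells and -0.03 to 0.10 in WT cells, with medians of 0.05 and 0.02. At 1000 UMIs a cell such weak values are no finding.

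Relatives of the 10 genes were read from lists of the same families and pathways. Their counts past 1.5-fold stand against 1.43% of all genes at the floor that were lower and 1.88% that were higher. Of 18 AP-1 and EGR early factors, 10 reached 20 CPM, 7 were lower in ATG7CKO cells by 1.5-fold, 0 were higher, and the median log2 ratio was -0.83. Fos, a founding immediate early gene and a partner in AP-1, had a ratio of 0.218, with 353.8 CPM in ATG7CKO cells and 1621 CPM in WT cells, and Fosb, its close relative, one of 0.258. Of 4 other KLF factors at the floor, 1 was higher by 1.5-fold, Klf12, a repressor, at 31.9 CPM in ATG7CKO cells and 20.8 CPM in WT cells, and Klf7 had a ratio of 0.874. Of 2 other MAP kinase phosphatases, Dusp16, which acts on JNK and p38, was lower at 24.2 CPM in ATG7CKO cells and 38.1 CPM in WT cells, and Dusp7, which acts on ERK, had a ratio of 1.01.

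Among 4 relatives of Zfp36 and Btg2 at the floor, 0 passed 1.5-fold in either direction, with a median log2 ratio of -0.23. Zfp36l1, another mRNA decay factor, had a ratio of 0.762 and Btg1 one of 0.778. As 1.43% of all genes at the floor were lower and 1.88% higher by 1.5-fold, 0 of so few genes is no finding, here and below. Among 3 genes of the integrated stress response, of which Ppp1r15a is the feedback phosphatase subunit, 0 passed, with a median of -0.35 and ratios of 0.704 for Atf4, its central transcription factor, and 0.786 for Ddit3, a downstream factor. Among 3 ERK feedback genes and targets, 0 passed, with a ratio of 0.895 for Spred1, an inhibitor of the Ras pathway, and 1.06 for Etv5, a target of ERK. The 2 relatives of Rgs1 at the floor, Rgs2 and Rgs3, had ratios of 0.912 and 1.06. Of the neuronal activity genes 1 reached the floor, Gadd45g, at a ratio of 1.08, and Nr4a2 and Nr4a3 did not reach it. The microglia markers, at a median log2 ratio of -0.15, included 1 of 17 that was lower by 1.5-fold, Cx3cr1, the locus that carries Cre, with 2767 CPM in ATG7CKO cells and 5336 CPM in WT cells.

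The question in the 5xFAD forebrain was whether the regulators changed with microglial Atg7 deletion in tissue with amyloid. Rgs1 was removed by the filter on low counts, and 0 of the other 9 rose or fell, by edgeR's quasi-likelihood test with Benjamini-Hochberg adjustment over 16956 genes. Of all genes tested, 0.33% were called, 0.0531% as higher and 0.277% as lower in KOFAD. At an unadjusted p under 0.05 the 9 genes gave 0, against 7.71% of all genes, and DESeq2 and limma voom also called 0. The KOFAD and WTFAD values separated without overlap for 0 of the 9, against 0.442% of all genes. Microglia markers summed to 499 to 528 CPM in KOFAD forebrains and 751 to 902 CPM in WTFAD forebrains, and 13 of 17 fell. In whole forebrain, fewer cells of a type and less RNA per cell cannot be told apart. The tissue also mixes microglia with other cells, so 0 calls do not show that the regulators were unchanged within microglia.

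Klf2 had a lowest, median and highest level of 15.2, 29.0 and 38.2 CPM in KOFAD forebrains and 20.6, 24.1 and 28.9 CPM in WTFAD forebrains. KOFAD libraries lay on both sides of the WTFAD range. The log2 change was 0.15 with a standard error (SE) of 0.18 and an adjusted p of 0.853 by edgeR. Klf4 had 7.59, 10.9 and 15.7 CPM in KOFAD forebrains and 9.41, 10.5 and 15.0 CPM in WTFAD forebrains, with a log2 change of 0.04 (SE 0.15). Klf6 was the steadiest of the genes, with 46.7, 52.3 and 54.5 CPM in KOFAD forebrains and 48.3, 49.98 and 53.7 CPM in WTFAD forebrains. Its log2 change of 0.04 had a 95% interval of -0.07 to 0.14.

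Dusp1 had a lowest, median and highest level of 49.3, 60.02 and 75.6 CPM in KOFAD forebrains and 48.6, 56.1 and 69.3 CPM in WTFAD forebrains. Its log2 change was 0.07, with a 95% interval of -0.16 to 0.31. Dusp6 had 57.2, 75.5 and 90.1 CPM in KOFAD forebrains and 69.8, 75.3 and 82.4 CPM in WTFAD forebrains. The WTFAD values lay inside the KOFAD range, and the log2 change was -0.01, with an interval of -0.19 to 0.17. The annotated span of Dusp1 overlaps Ergic1 on the other strand, and the strand setting of the counting is not given in the sources used here. That span also holds the pseudogene Gm8225 on the other strand and, on its own strand, AC122252.1 and the pseudogene AC122252.4. Spans on the other strand also overlap for Zfp36 with Gm44710 and for Ppp1r15a with Tulp2. Gene spans and not exons were compared, and whether reads were shared was not tested.

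Nr4a1, nearly undetected in sorted microglia, had a lowest, median and highest level of 106, 181 and 212 CPM in KOFAD forebrains and 143, 156 and 183 CPM in WTFAD forebrains. The groups overlapped, with a log2 change of 0.12 (SE 0.15) and an interval of -0.20 to 0.45. Btg2 had 23.6, 31.5 and 36.5 CPM in KOFAD forebrains and 25.7, 26.7 and 38.9 CPM in WTFAD forebrains, a log2 change of 0.07 with an interval of -0.20 to 0.34. Zfp36 averaged 5.28 ± 0.781 CPM in KOFAD forebrains (SD, n = 7) and 5.26 ± 0.566 CPM in WTFAD forebrains (SD, n = 6). Ppp1r15a averaged 13.2 ± 2.03 CPM in KOFAD forebrains (SD, n = 7) and 12.8 ± 1.20 CPM in WTFAD forebrains (SD, n = 6). Adjusted p over the 9 genes in edgeR ran from 0.853 for Klf2 to 0.992 for Zfp36. The median log2 change was 0.04 over the 9 genes and 0.00 over all genes tested.

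Rgs1 had 0 to 13 counts a library in KOFAD forebrains and 1 to 10 in WTFAD forebrains, or 0.340 ± 0.258 CPM (SD, n = 7) and 0.227 ± 0.201 CPM (SD, n = 6). Without the filter on low counts, edgeR gave it a log2 change of 0.57 (SE 0.55) and an adjusted p of 0.699. Its lower level in ATG7CKO microglia therefore has no counterpart of usable depth in the forebrain libraries.

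**Figure D3:**
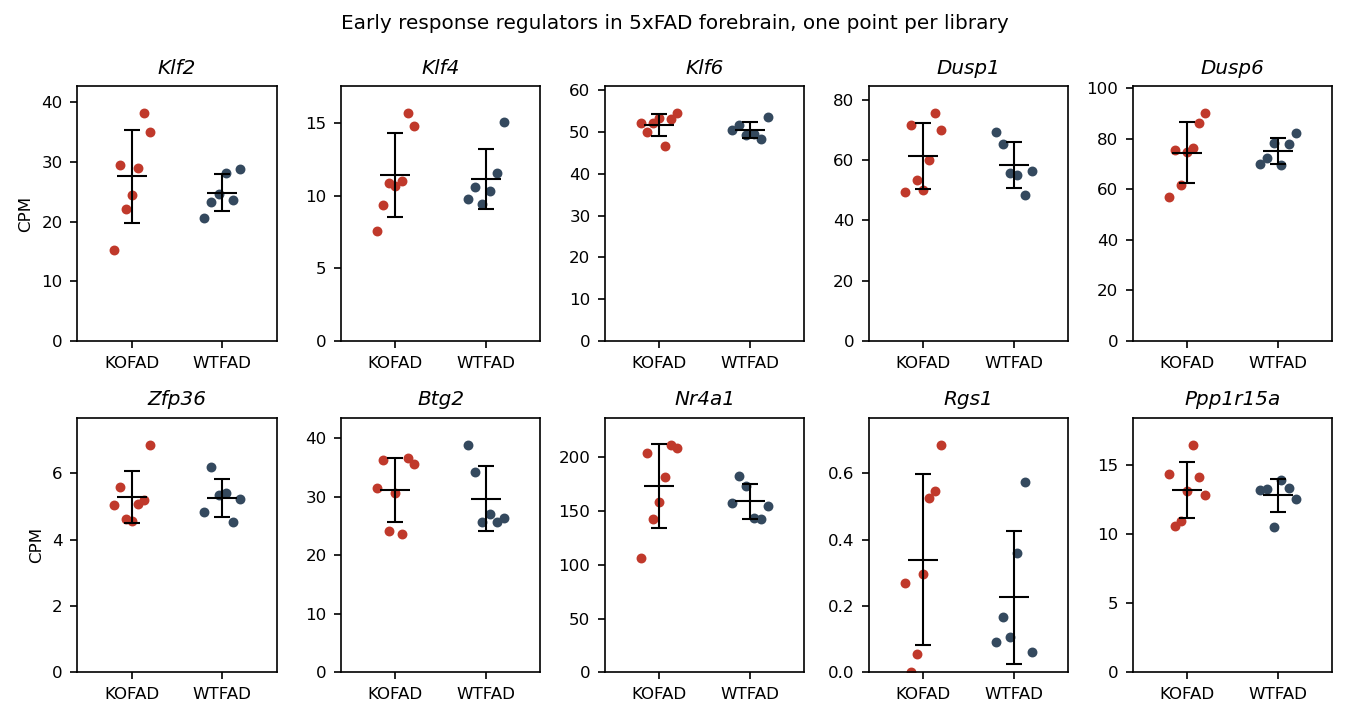
Level of each gene in CPM (vertical axes from 0) in the 7 KOFAD and 6 WTFAD forebrain libraries, 1 point per library, with the mean and SD. The groups overlap in all 10 panels, and Klf2 and Nr4a1 spread from 15.2 to 38.2 CPM and 106 to 212 CPM among KOFAD libraries.

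Several of the genes varied widely between libraries of 1 group. For Klf2 the SD of log2 CPM was 0.44 in KOFAD forebrains and 0.18 in WTFAD forebrains, where genes of the same level decile had medians of 0.13 and 0.12. For Nr4a1 it was 0.36 in KOFAD forebrains and 0.14 in WTFAD forebrains, against decile medians of 0.09 and 0.07. For Dusp6 it was 0.24 in KOFAD forebrains and 0.10 in WTFAD forebrains, against 0.10 and 0.08. Klf6 was less variable than its decile, at 0.07 in KOFAD forebrains and 0.05 in WTFAD forebrains against 0.11 and 0.09. Zfp36 was too, at 0.18 in KOFAD forebrains and 0.14 in WTFAD forebrains against 0.24 and 0.23. Replicate 1 of KOFAD was the lowest of its group for Klf2, Klf4, Dusp1, Dusp6 and Nr4a1, and replicates 6 and 7 of KOFAD were the 2 highest for Klf2, Klf4, Dusp6 and Nr4a1. Whether the spread itself differed between KOFAD and WTFAD was not tested.

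**Figure D4:**
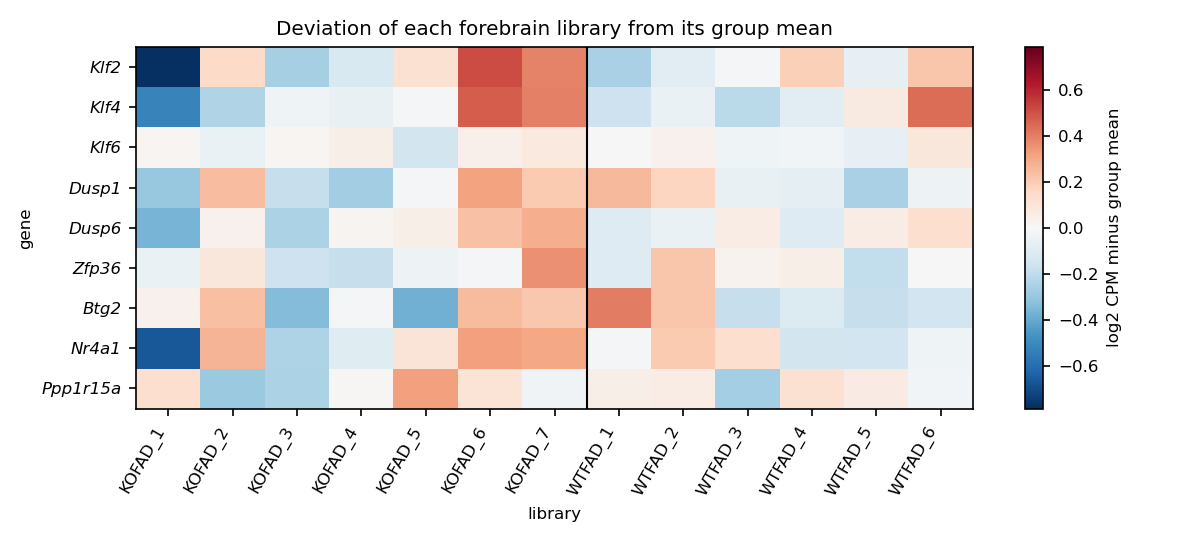
Deviation of each gene's log2 CPM from its group mean in each KOFAD (left) and WTFAD (right) forebrain library, as a colour from blue (below the mean) to red (above), for the 9 genes past the count filter. Klf2 runs from -0.79 in KOFAD replicate 1 to 0.51 in KOFAD replicate 6, and Klf4, Dusp6 and Nr4a1 are also lowest in KOFAD replicate 1 and high in KOFAD replicates 6 and 7.

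Across the 13 forebrain libraries, with group means removed, the 36 pairs of the 9 genes were compared by 2-sided permutation within groups with adjustment over the 36. By Pearson's r, 6 pairs had an adjusted p under 0.05, and by Spearman's rho 0 did. Klf2 and Dusp6 had r = 0.882 (permutation p = 0.00053, adjusted p = 0.0191) and rho = 0.786 (adjusted permutation p = 0.0907). Their r was 0.950 within KOFAD forebrains, 0.408 within WTFAD forebrains and 0.757 without KOFAD replicates 1 and 6, the 2 libraries farthest from the median of Klf2, the first-named gene. Klf2 and Nr4a1 had r = 0.825 (permutation p = 0.00573, adjusted p = 0.0344) and rho = 0.670 (adjusted permutation p = 0.211). Their r was 0.979 within KOFAD forebrains, -0.31 within WTFAD forebrains and 0.520 without the same 2 libraries, so the relation rested in large part on KOFAD libraries.

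Dusp1 and Nr4a1 had r = 0.803 (permutation p = 0.00183, adjusted p = 0.0329) and rho = 0.852 (adjusted permutation p = 0.0605). Their r was 0.884 within KOFAD forebrains and 0.571 within WTFAD forebrains. It was 0.844 without the 2 libraries farthest on Dusp1 and 0.765 without the 2 farthest on Nr4a1. The other 3 pairs were Dusp6 with Nr4a1 (r = 0.813, rho = 0.681), Klf2 with Klf4 (r = 0.798, rho = 0.577) and Klf4 with Dusp6 (r = 0.792, rho = 0.654), each with an adjusted permutation p of 0.0344 by Pearson, and of 0.191, 0.260 and 0.191 by Spearman. Without the 2 libraries farthest on the first-named gene these 3 had r of 0.553, 0.559 and 0.750, and without the 2 farthest on the second-named gene 0.604, 0.739 and 0.796. Within KOFAD forebrains r was 0.927, 0.866 and 0.839, and within WTFAD forebrains -0.01, 0.592 and 0.670. All points of a pair share the library and its scaling. Summed neuron markers ran from 5899 to 6475 CPM in KOFAD forebrains and 6156 to 6556 CPM in WTFAD forebrains, and endothelial markers from 210 to 243 CPM in KOFAD and 222 to 239 CPM in WTFAD forebrains. Their part in these relations was not tested.

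For each gene, the 3 tested genes with the most similar deviations over the 13 libraries were found by Pearson's r. For Klf2 these were Sik1, Arc and Egr4 at 0.958, 0.925 and 0.919. For Dusp6 they were Egr1, Fosb and Arc at 0.948, 0.947 and 0.943. For Nr4a1 they were Gm44696, Egr4 and Egr2 at 0.946, 0.943 and 0.939. Sik1 is an activity-regulated kinase, Arc a synaptic immediate early gene and the EGR genes early zinc-finger factors, and the lists of early factors and neuronal activity genes hold all but Gm44696. Klf4 was closest to Tulp3, Apold1 and B430306N03Rik at 0.942, 0.941 and 0.937, of which Apold1 is an endothelial early response gene. Dusp1 was closest to Vwa5b2, Sh3bp4 and Chrm4 at 0.868, 0.862 and 0.842, and Btg2 to Adgrl2, Clcn6 and Abcc8 at 0.867, 0.859 and 0.852. Klf6 was closest to Gpr75, Fyco1 and Cfap300 at 0.877, 0.872 and 0.869, Zfp36 to Gm18517, Ceacam16 and Mir5125 at 0.883, 0.867 and 0.864, and Ppp1r15a to Map3k11, Sod3 and Hspa12b at 0.893, 0.889 and 0.886. These are the highest among all genes tested and are given as a description.

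In the forebrain 0 of 79 tested relatives in the 9 lists rose or fell by edgeR, against 0.33% of all genes tested. By the same test 1, Rgs5, a pericyte regulator of G-protein signalling, had an unadjusted p under 0.05, against 7.71% of all genes. DESeq2 also called 0, with 2 at an unadjusted p under 0.05, and limma voom called 0, with 1. The 18 AP-1 and EGR factors had a median log2 change of 0.06 and summed to 848 to 1626 CPM in KOFAD forebrains and 1094 to 1387 CPM in WTFAD forebrains. The 11 neuronal activity genes had a median of 0.02, and the 8 integrated stress response genes one of 0.03. The 11 other KLF factors, 8 other MAP kinase phosphatases, 8 ERK feedback genes and 6 relatives of Zfp36 and Btg2 had medians of -0.03, -0.01, -0.02 and -0.02. Nr4a2 and Nr4a3 had a median of -0.07, and the 7 tested relatives of Rgs1 one of -0.06.

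Sorted and whole-tissue levels were set side by side as CPM of end tags in microglia over TPM in forebrain. TPM was scaled by library total and by the joined length of all annotated exons of a gene. For Rgs1 and Zfp36 that length, 6947 and 3470 bases, equalled the whole gene span. A longer length gives a lower TPM and so a higher ratio. Rgs1 stood farthest toward microglia, at 860 for ATG7CKO over KOFAD and 2550 for WT over WTFAD, on a forebrain level that rested on 0 to 13 counts a library. Zfp36 followed at 117 and 148, and Btg2 at 37.9 and 57.8, while 17 microglia markers ran from 10.8 to 223 and from 9.70 to 116. Klf6 was at 8.37 and 10.2, Ppp1r15a at 7.84 and 12.1, and Dusp6 at 4.32 and 5.32. Klf4, Dusp1 and Klf2 lay lower, at 2.66, 2.45 and 2.05 in the deleted pair and 7.15, 4.85 and 3.70 in the control pair. Nr4a1 was at the other end, at 0.0124 and 0.0142, and neuron markers were at most 0.00798 and 0.00514. The libraries differ in assay and in the amyloid transgenes, so only the order is read. Between genes, forebrain TPM in KOFAD and WTFAD was 185 and 170 for Nr4a1, and 5.70 and 5.68 for Zfp36.

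**Figure D5:**
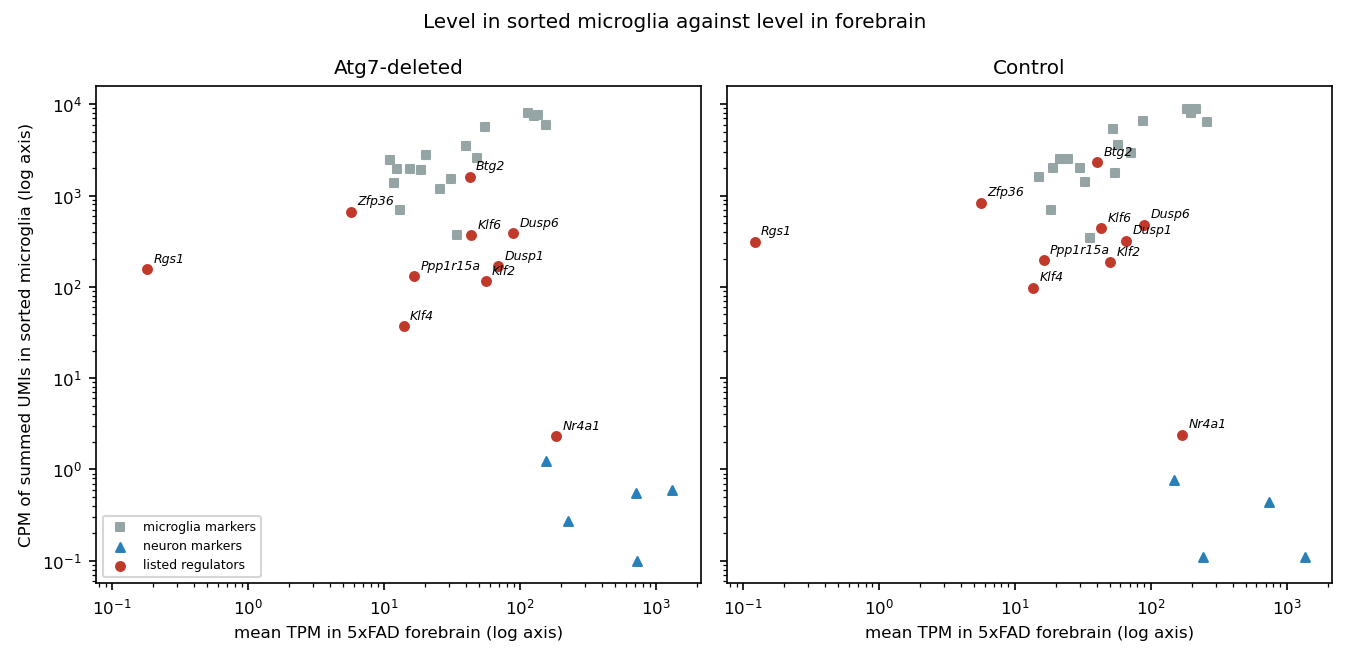
Sorted microglia level (CPM of end tags, vertical log axis) against forebrain level (mean TPM, horizontal log axis) for the 10 genes, with microglia and neuron markers, in the Atg7-deleted pair (left) and the control pair (right). Rgs1 and Zfp36 lie to the upper left, Btg2 among the microglia markers, and Nr4a1 nearest to the neuron markers, at ratios of 0.0124 and 0.0142. Markers at 0 are not drawn.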

How the data were processed

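The deposited forebrain table holds raw read counts for each gene. The submitters' processing notes name HISAT2 2.0.5, featureCounts 1.5.0-p3 and the mm10 build for it. The deposited single-cell matrices hold raw UMI counts of 3' tags, and per the file headers the authors ran Cell Ranger 6.1.0. Sorted cells were CD11b-high and CD45-low per the labels. Groups came from the genotype labels.

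Bulk counts of all genes were filtered with filterByExpr, scaled by TMM and tested with edgeR 4.0.16 in R 4.3.3 (glmQLFit with robust set and glmQLFTest, genotype as the only term, Benjamini-Hochberg over all genes tested, threshold 0.05). Replicate numbers were not said to pair the libraries, so the main test had no block. DESeq2 1.42.0 and limma 3.58.1 were alternatives. Correlations used log2(CPM + 0.5).

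The cells kept had 500 or more genes and no more than 10% mitochondrial UMIs, with no doublet removal. They were not clustered, because early response genes could themselves shape the clusters, which was not tested. Summed UMIs are given as CPM, with exact Poisson and conditional binomial intervals (95%) that cover counting error only, in Python 3.11.15 with SciPy 1.17.1. Genes with under 20 CPM in both libraries were not counted. Both procedures were checked on simulated data. The single-cell simulation drew Poisson counts, the spread its interval assumes, and the bulk simulation gave every gene the same dispersion. Neither check covers a wider spread between cells or libraries. Gene positions and lengths are from GENCODE M21 on GRCm38, and promoters from RefSeq.

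The genes, lists, depth classes and tests were chosen with earlier results of these data known. Besides the 10 genes, the text names by rule the 3 genes most similar to each in the forebrain and, of each list of relatives, every called gene and the 2 with the largest single-cell ratio or its inverse at the floor. Rgs5 was named after its value was seen.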

Additional observations from a re-analysis of the deposited data

How the results depend on the processing

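The 9 listed genes tested in the forebrain gave 0 that rose and 0 that fell under every alternative run (another scaling, no count filter, DESeq2, limma voom, the replicate block and each library left out), and the smallest adjusted p was 0.452, for Nr4a1 by edgeR without KOFAD replicate 1. Changes this close to 0 turned sign in places. With the replicate block, Klf4 had a log2 change of -0.0481 and Zfp36 one of -0.0646. Leaving out 1 library in turn, log2 changes ran from -0.0573 to 0.046 for Dusp6, -0.0497 to 0.147 for Klf4, -0.0613 to 0.0632 for Zfp36 and -0.0137 to 0.0929 for Ppp1r15a. Of all genes, 47 fell and 9 rose. The replicate block gave 21 that fell and 1 that rose, no count filter gave 23 that rose, DESeq2 gave 23 that rose, and leaving out 1 library gave 30 to 50 that fell and 3 to 23 that rose. Same-numbered libraries had correlations of deviations from -0.32 to 0.17, which cannot decide whether they were paired or processed together. In the single-cell libraries the count lower by at least 1.5-fold was 4. It was 5 with all deposited barcodes and with at most 5% mitochondrial UMIs, and 6 with median-ratio scaling. With at least 1000 genes per cell it stayed at 4, but Klf2 no longer passed (log2 ratio -0.467) and Ppp1r15a did (-0.606). There Nr4a1, too low to be counted, was at 1.02. The count was 3 in cells of 2000 to 4000 UMIs, where the log2 ratio was 0.0571 for Zfp36. It went to 0 in cells of 1000 to 2000 UMIs, where the log2 ratio was 0.257 for Klf6, 0.0844 for Btg2 and 0.0208 for Ppp1r15a. These UMI ranges were chosen after seeing the data, and the cause was not tested.

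Depth limits Nr4a1 in microglia, at 92 and 22 UMIs in ATG7CKO and WT cells, and Rgs1 in the forebrain. With 1 pooled library per genotype, the single-cell differences cannot be told apart from differences between libraries.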
